A study of Mus musculus with 15 samples.

Results

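The genes described here are 10 genes of the endoplasmic reticulum (ER) that fold secreted and membrane proteins or respond when that folding is overloaded: *Hspa5*, *Hsp90b1*, *Calr*, *Canx*, *Pdia3*, *Pdia4*, *Pdia6*, *Xbp1*, *Ddit3* and *Atf4*. They were chosen by gene name, and all 10 were found among the 52526 genes listed for each of 15 mice. The tissue was the left 4th mammary fat pad of female nude mice (Crl:NU-*Foxn1*nu), an athymic strain that lacks mature T cells. From 8 weeks of age onward, subcutaneous osmotic mini-pumps gave 7 mice BDE-47, a polybrominated diphenyl ether flame retardant, for 16 weeks at a daily 0.03 mg/kg in PEG300 with 1% DMSO. The pumps of the 8 vehicle mice held PEG300 with 1% DMSO alone, and the study's chemical measurement also found a low BDE-47 signal in vehicle mice. Some mice carried a xenograft nearby, but the labels do not say which, so its part was not tested. Each mouse gave 1 library.

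The ER is where newly made secreted proteins fold. BiP, the product of *Hspa5*, binds unfolded chains, the lectins calnexin and calreticulin hold glycoproteins, and protein disulfide isomerases form and rearrange disulfide bonds. When unfolded protein accumulates, the sensors PERK, IRE1 and ATF6 start the unfolded protein response, in which PERK favours translation of ATF4, ATF4 drives CHOP (*Ddit3*), IRE1 splices *Xbp1* mRNA, and ATF6 and XBP1 raise the chaperones. In the mammary gland this machinery is best known for its load in lactation and in antibody-secreting plasma cells. The libraries count the 3′ ends of polyadenylated RNA, so neither the splicing of *Xbp1* nor the translation of *Atf4* was measured.

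ATF6 acts with NF-Y through the ER stress response element, CCAAT and CCACG separated by 9 bases. This element is shown because it is carried by 5 of the 10 promoters (50%) and by 39 of 32851 mouse promoters (0.119%). The search covered both strands from 250 bases before to 50 bases after each gene start in the RefSeq promoters of GRCm38.p6, and no site overlapped another of the same gene. In the lines below the capitals mark both parts of the element, and each site is written in the direction of the element, with its coordinates in GRCm38.p6.
*Hspa5*, chr2:34772025-34772043, same direction as the gene: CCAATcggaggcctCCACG
*Calr*, chr8:84847075-84847093, opposite direction: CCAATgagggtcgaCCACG
*Hsp90b1*, chr10:86705638-86705656, same direction: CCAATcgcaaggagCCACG
*Hsp90b1*, chr10:86705533-86705551, opposite direction: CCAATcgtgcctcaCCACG
*Canx*, chr11:50325800-50325818, same direction: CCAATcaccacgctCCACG
*Pdia6*, chr12:17266491-17266509, same direction: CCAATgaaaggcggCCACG
The *Hspa5* site lies closest to its gene start, with its near end 46 bases before it. The letters were not found in the windows of *Pdia3*, *Pdia4*, *Xbp1*, *Ddit3* and *Atf4*.

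The 250 bases before the start of *Hspa5* and of *Canx* are given in full because these 2 genes varied together across mice. Both are written 5′ to 3′ along the gene, with the same capitals.
*Hspa5*, plus strand, chr2:34771840-34772089: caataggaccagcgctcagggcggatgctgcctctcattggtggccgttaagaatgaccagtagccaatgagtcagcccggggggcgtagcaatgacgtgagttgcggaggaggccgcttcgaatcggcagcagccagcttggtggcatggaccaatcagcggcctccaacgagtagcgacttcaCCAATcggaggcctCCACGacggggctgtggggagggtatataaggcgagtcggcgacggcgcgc
*Canx*, minus strand, chr11:50325674-50325923: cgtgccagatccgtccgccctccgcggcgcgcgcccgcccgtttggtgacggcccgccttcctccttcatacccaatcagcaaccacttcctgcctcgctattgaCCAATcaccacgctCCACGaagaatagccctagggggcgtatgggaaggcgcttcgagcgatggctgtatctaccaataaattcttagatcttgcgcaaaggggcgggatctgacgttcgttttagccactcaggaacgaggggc

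Sequencing depth, recovered from the spacing of low values, was 10.06 to 19.58 M mapped reads per mouse, and values are log2(CPM), where CPM scales a gene's reads to the mapped total of the library and 0 stands for a gene under 1 CPM. A listed 0 need not mean absence or a level under 1 CPM, since 44.7% of the 4483 genes with a median of 16 CPM or more were also listed at 0 in at least 1 mouse. Adipocyte, luminal, fibroblast and endothelial markers were found in the tissue, and no marker was at 0 in every mouse. Vehicle replicates 6 and 8 had all 9 B cell and plasma cell markers above the floor, summing to 4114 and 44380 CPM, whereas the other mice had 2 to 5 of 9 and sums of 18.8 to 593 CPM. The same 2 libraries had the lowest sums of 8 adipocyte markers (535.5 and 1243 CPM, against 5322 to 35270 in the others) and of 10 luminal markers (49.3 and 203 CPM, with 207 in BDE-47 replicate 6 and 959 to 4387 in the others), and the highest sums of 8 macrophage markers (1456 and 2087 CPM). The part of this tissue content in the results was not tested. BDE-47 replicate 6 had 94200 CPM of 8 skeletal muscle markers against 45.7 to 193 in the other mice, and its genes lay lower in general, with a median deviation of -0.57 on the log2 scale. Fewer cells of a type and less RNA per cell cannot be told apart in whole tissue.

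None of the 10 genes passed the test across all genes, and *Calr* showed the least overlap between the groups. Mean log2(CPM) was lower with BDE-47 for 9 of the 10 genes, where 50.9% of all 9506 genes tested were lower, and the median difference was -0.64 against -0.02 over all genes. With limma and Benjamini-Hochberg adjustment over the 9506 genes, 0% were called and the lowest adjusted p was 0.982. An unadjusted limma p under 0.05, in either direction, was found for 442 genes, of which 258 were lower with BDE-47. Unadjusted limma p-values were under 0.05 for 2 of the 10 genes, *Hsp90b1* and *Calr*, both lower, against 2.71% of all genes counted in the lower direction only. The exact permutation test gave 1 gene under 0.05, *Calr*, which was lower, against 2.56% of all genes counted in the lower direction only. A difference of more than 2-fold, counted without a test, was seen for 3 genes, *Hsp90b1*, *Pdia4* and *Ddit3*, all lower. The share of all genes more than 2-fold lower was 13.2%.

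Without vehicle replicates 6 and 8, 9 of 10 genes had a lower mean, with a median difference of -0.58. Without BDE-47 replicate 6 alone, 10 of 10 did, and the median difference became -0.35. With those 3 libraries left out together, 7 of 10 did, with a median of -0.33.

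**Figure D1:**
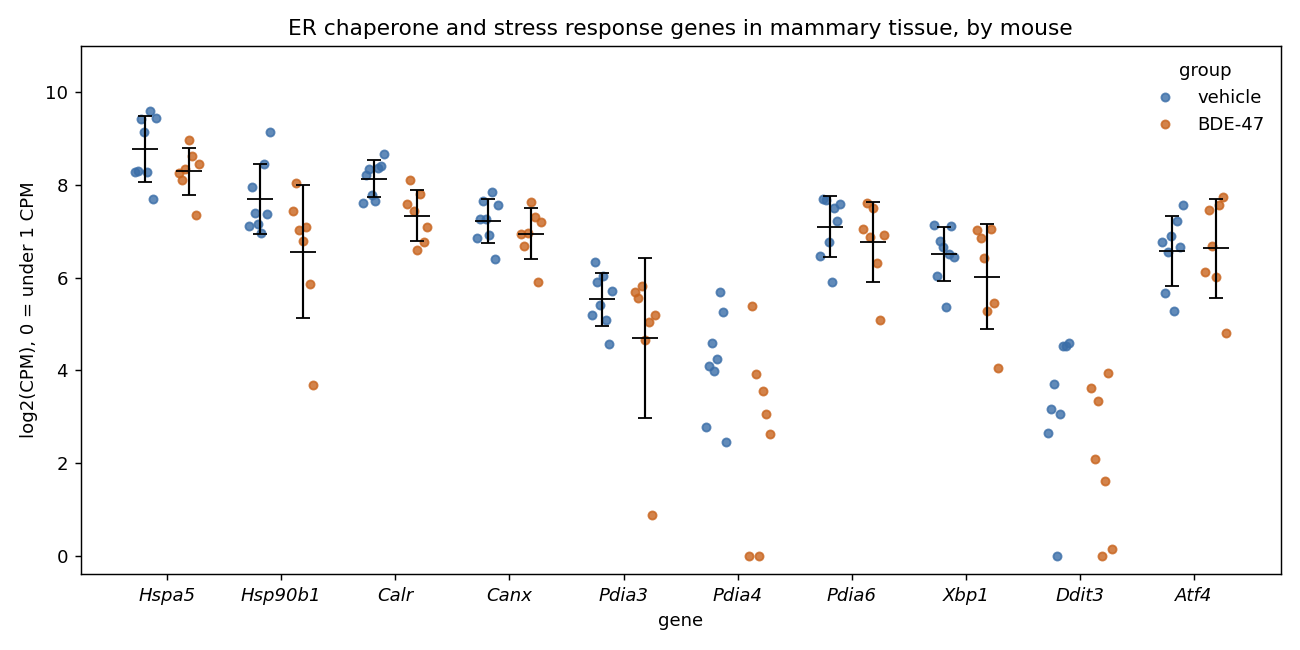
Each point is 1 mouse, with log2(CPM) on the y axis (0 for genes under 1 CPM) and the gene on the x axis, in vehicle (blue, n = 8) and BDE-47 mice (orange, n = 7). Bars give mean ± SD, drawn for the 8 genes above the floor in all mice. *Calr* shows the least overlap, with 5 BDE-47 mice below all vehicle mice, and *Pdia4* and *Ddit3* hold the values listed at 0.

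The Hsp70 and Hsp90 chaperones of the ER lumen are *Hspa5* and *Hsp90b1*. *Hspa5* (chr2:34772090-34776529) encodes BiP, the chaperone that also keeps the stress sensors silent. Its log2(CPM) was 7.70 at the lowest, 8.72 at the median and 9.59 at the highest in vehicle mice, and 7.35, 8.34 and 8.97 in BDE-47 mice. The groups overlapped broadly, with 4 vehicle mice above all BDE-47 mice and 1 BDE-47 mouse, replicate 6, below all vehicle mice. The difference was -0.47 ± 0.34 (SE) on the log2 scale (exact permutation p = 0.164), and it became -0.06 without BDE-47 replicate 6 and vehicle replicates 6 and 8. The interval of the difference, -1.16 to 0.22, includes a 2-fold decrease.

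*Hsp90b1* (chr10:86690841-86705444) encodes GRP94, the Hsp90 of the ER, whose clients include integrins and Toll-like receptors. Vehicle mice had 6.97, 7.39 and 9.14 log2(CPM) at the lowest, median and highest, and BDE-47 mice had 3.69, 7.02 and 8.03. BDE-47 replicates 4, 6 and 7 lay below every vehicle mouse, and vehicle replicates 6 and 8, which held the B cell genes, lay above every BDE-47 mouse. The difference of -1.14 ± 0.48 had an unadjusted limma p of 0.0235, an adjusted p of 0.982 and an exact permutation p of 0.0542. Without vehicle replicates 6 and 8 it was -0.77 (exact permutation p = 0.24), and without BDE-47 replicate 7, the lowest mouse, it was -0.66 (exact permutation p = 0.134).

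The lectin chaperones differed in how far the groups parted. *Calr* (chr8:84842088-84846931) encodes calreticulin, the soluble lectin of the ER lumen that also buffers calcium. Its log2(CPM) was 7.60, 8.28 and 8.67 at the lowest, median and highest in vehicle mice and 6.59, 7.44 and 8.10 in BDE-47 mice. All 7 BDE-47 mice lay below the vehicle mean and median, 5 of them below every vehicle mouse, and 5 of the 8 vehicle mice lay above every BDE-47 mouse. Group means were 8.13 ± 0.40 (SD, n = 8) and 7.34 ± 0.55 (SD, n = 7), 1.74-fold lower with BDE-47 (exact permutation test, two-sided p = 0.00637). The limma test across all genes gave an unadjusted p of 0.029 and an adjusted p of 0.982. The unadjusted limma p rose over 0.05 without vehicle replicate 8 (0.0554), without BDE-47 replicate 4 (0.0666) and without vehicle replicates 6 and 8 (0.0691). It also did with the replicate block, which leaves out vehicle replicate 8 as well (0.0603), and with no trend in the prior variance (0.112). Leaving out any 1 mouse gave differences of -0.92 to -0.67 with exact permutation p between 0.00333 and 0.0153, and leaving out vehicle replicates 6 and 8 gave -0.66 (exact permutation p = 0.0286). With BDE-47 replicate 6 also left out, it was -0.57 (exact permutation p = 0.0498).

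*Canx* (chr11:50293957-50325673) encodes calnexin, the membrane-bound lectin that shares its glycoprotein cycle with calreticulin. Vehicle mice ranged from 6.41 to 7.84 log2(CPM) with a median of 7.26, and BDE-47 mice from 5.91 to 7.63 with a median of 6.96. The groups overlapped for most mice, and the lowest was BDE-47 replicate 6. The difference was -0.27 ± 0.39 (exact permutation p = 0.32), with an interval of -1.06 to 0.51, and it was -0.10 without BDE-47 replicate 6.

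**Figure D2:**
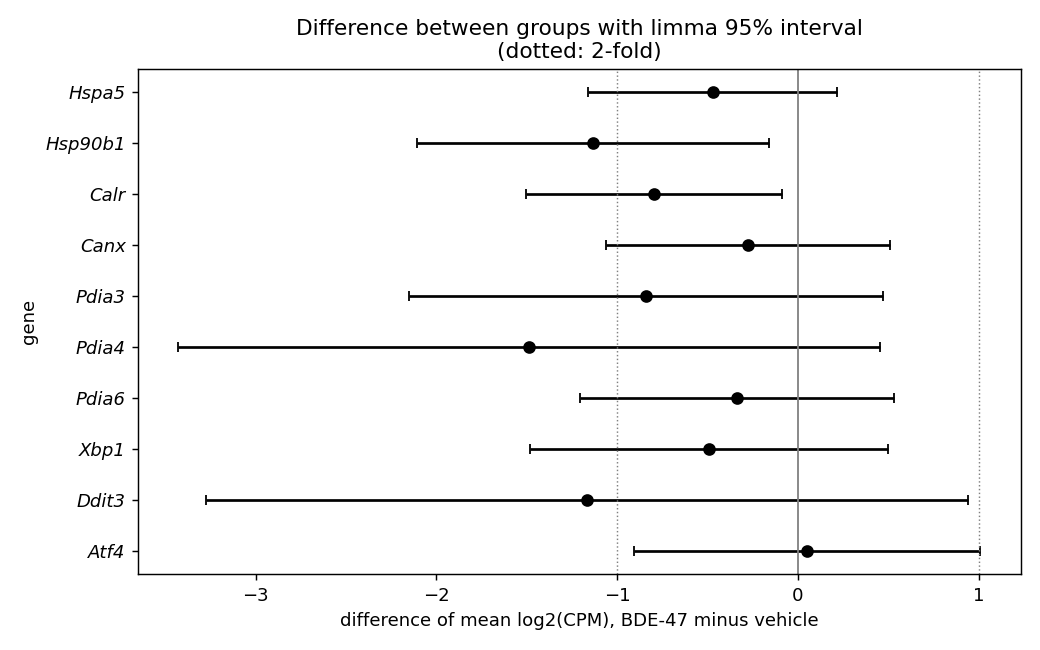
Points give the difference in mean log2(CPM), BDE-47 minus vehicle, for each gene, with limma's 95% interval and dotted lines at a 2-fold change. The intervals of *Hsp90b1* and *Calr* lie below 0 before adjustment, and the other 8 include 0.

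The disulfide isomerases gave differences of -0.34 to -1.49, none with a p under 0.05. *Pdia3* (chr2:121413902-121438687) encodes ERp57, the isomerase that works with calnexin and calreticulin and in the loading of MHC class I. Vehicle mice had 4.58, 5.57 and 6.34 log2(CPM) at the lowest, median and highest, and BDE-47 mice had 0.88, 5.18 and 5.82. A single library, BDE-47 replicate 6 with its muscle genes, stood far below the rest, and the other 6 BDE-47 mice lay within the vehicle range. The difference of -0.84 ± 0.65 (exact permutation p = 0.192) was -0.21 without that library (exact permutation p = 0.474).

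*Pdia4* (chr6:47796141-47813512) encodes ERp72. Vehicle mice had 2.78, 4.10, 4.58, 3.98, 4.24, 5.70, 5.25 and 2.46 log2(CPM) in replicates 1 to 8, and BDE-47 mice were listed at 0, 5.40, 3.91, 0, 3.56, 3.07 and 2.62 in replicates 1 to 7. It passed 1 CPM in 8 of 8 vehicle and 5 of 7 BDE-47 mice (Fisher's exact test, two-sided p = 0.2), and the 5 lay within the vehicle range. The difference of -1.49 on the log2 scale (exact permutation p = 0.0967) counts those 2 mice at 0, and it was -2.44 with a pseudocount of 0.1 and -0.90 as the log2 ratio of mean CPM. *Pdia6* (chr12:17266589-17284785), which encodes the P5 isomerase that associates with BiP, had 5.91, 7.36 and 7.69 log2(CPM) at the lowest, median and highest with vehicle. With BDE-47 it had 5.08, 6.93 and 7.60, so the groups overlapped except for BDE-47 replicate 6 at the bottom. The difference was -0.34 ± 0.43 (exact permutation p = 0.417), and -0.05 without that library (exact permutation p = 0.862).

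The transcription factors of the response showed wide and overlapping values. *Xbp1* (chr11:5520641-5525993), the target of IRE1 splicing and a factor that plasma cells need, had 5.37, 6.59 and 7.13 log2(CPM) at the lowest, median and highest with vehicle and 4.05, 6.41 and 7.06 with BDE-47. BDE-47 replicates 4 and 7 were the mice below the vehicle range, and vehicle replicates 6 and 8, which held the B cell genes, lay near the vehicle median. The difference was -0.49 ± 0.49 (exact permutation p = 0.312), and -0.16 without BDE-47 replicate 7 (exact permutation p = 0.664).

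*Atf4* (chr15:80255184-80257545), the factor of the integrated stress response, had nearly equal means in both groups. Vehicle mice had 5.28, 6.71 and 7.57 and BDE-47 mice 4.80, 6.68 and 7.74 log2(CPM) at the lowest, median and highest. The ranges covered each other almost wholly, and the difference of 0.05 ± 0.47 (exact permutation p = 0.914) had an interval of -0.91 to 1.01, wide enough for a 2-fold rise. Its sign turned when any 1 of 5 mice was left out.

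*Ddit3* (chr10:127290793-127296291), which encodes the pro-apoptotic factor CHOP, had a value at 0 in both groups. Vehicle mice had 2.66, 3.16, 3.71, 0, 3.05, 4.52, 4.53 and 4.58 log2(CPM) in replicates 1 to 8, and BDE-47 mice had 3.62, 2.09, 3.33, 0, 1.61, 3.95 and 0.15 in replicates 1 to 7. It was at 0 in 1 mouse of each group, and the 3 highest mice were vehicle replicates 6, 7 and 8. The difference was -1.17 on the log2 scale with those values at 0 (exact permutation p = 0.171).

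The mice with the most extreme values differed from gene to gene. BDE-47 replicate 6 was the lowest of the 15 mice for 4 genes and replicate 7 for 3, while vehicle replicates 6 and 8 were each the highest for 3. *Hsp90b1*, *Xbp1* and *Atf4* were at their lowest in replicate 7, and *Hspa5*, *Canx*, *Pdia3* and *Pdia6* in replicate 6, which was also the highest of all mice for *Atf4* (7.74) and whose genes lay lower in general. The SD was larger in the BDE-47 group for 9 of the 10 genes, against 42.2% of all genes tested and 46.4% of those above the floor in all mice. The exception was *Hspa5*, with an SD of 0.50 against 0.71 in vehicle mice. *Canx*, *Pdia3* and *Pdia6*, among the 9, had their lowest value in BDE-47 replicate 6. The count was not recomputed without that library, so its part in the larger SDs was not tested.

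Over all 15 mice *Canx* was the steadiest, with an SD of 0.51 log2 units, and only 4.54% of the 2577 genes above the floor in every mouse had a smaller SD. *Calr* (0.61) and *Hspa5* (0.65) were also steadier than most of these genes, whose median SD was 1.00. *Hsp90b1* (1.23) and *Pdia3* (1.28) were more variable than the median gene.

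Within groups the genes did not vary as a single block. Pearson's r was computed for the 28 pairs of the 8 genes above the floor in all mice, after subtracting each group's mean. It was above 0 in 23 pairs with a median of 0.40, where the median over all pairs of the 2577 genes was 0.03, and it exceeded 0.5 in 11 of the 28 pairs, against 7.62% of all pairs. Without BDE-47 replicate 6, the library with the muscle markers, 5 of those 11 pairs were no longer over 0.5 (*Canx* and *Pdia3* had 0.03, *Pdia3* and *Pdia6* 0.03), the median over the 28 pairs was 0.19 and 7.70% of all pairs exceeded 0.5. With size factors the median was also 0.19, with 6 of the 11 over 0.5. These correlations share libraries and the scaling to CPM.

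*Hspa5* and *Canx* gave the highest value, r = 0.93 over 15 mice (permutation p = 1e-05, the smallest that 100000 resamples can give, and 0.00028 adjusted over 28 pairs), with Spearman's rho = 0.91 (permutation p = 1e-05, adjusted 0.00028). Without the 2 mice farthest from the median of *Hspa5*, r was 0.89, and it was 0.94 within vehicle and 0.995 within BDE-47 mice. The difference in log2(CPM) between both genes, *Hspa5* minus *Canx*, was 1.03 to 1.89 over the mice, with an SD of 0.07 in BDE-47 and 0.32 in vehicle mice, a contrast that was not tested. Another ranking, of 2576 genes by Spearman's rho with *Hspa5* over the 15 mice, did not subtract group means, so group differences enter it. *Canx* came first in it at 0.94. Next were *Arpc4* (0.93), a subunit of the Arp2/3 actin complex, and *Mob1a* (0.91), a Hippo pathway adaptor. Then came *Laptm5* (0.91), a lysosomal membrane protein of haematopoietic cells, and *Farsa* (0.85), a phenylalanyl-tRNA synthetase subunit. The other 6 of the 8 genes ranked between 560 for *Pdia6* and 2004 for *Xbp1* in the same ranking.

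Summed cell type markers were set beside the 8 genes, and 0 of 64 relations had an adjusted Pearson p under 0.05. The largest r was -0.90, of *Pdia3* with the skeletal muscle markers (permutation p = 0.00276, adjusted 0.0589), which were high in BDE-47 replicate 6. It was -0.41 without the 2 mice farthest from the median marker level, and rho was -0.57 (adjusted permutation p = 0.356). Only macrophage markers had relations with an adjusted Spearman p under 0.05. Over 15 mice, with group means subtracted, log2 of the summed level of 8 macrophage markers had r = 0.78 with *Hspa5* (permutation p = 0.00091, adjusted over 64 relations 0.0531) and rho = 0.87 (permutation p = 7e-05, adjusted 0.00448). For *Canx* r was 0.73 (permutation p = 0.00166, adjusted 0.0531) and rho was 0.83 (permutation p = 0.00022, adjusted 0.00704). Without the 2 mice farthest from the median marker level, r was 0.68 with *Hspa5* and 0.63 with *Canx*. *Pdia6* had r = 0.64 with the same markers (permutation p = 0.00916, adjusted 0.111), rho = 0.68 (permutation p = 0.00642, adjusted 0.137) and r = 0.72 without those 2 mice. The summed markers ranged from 124 to 2087 CPM in vehicle and from 148 to 618 CPM in BDE-47 mice, and 4 to 8 of the 8 were above the floor in each mouse. Keratinocyte markers went the other way, with r = -0.43 and rho = -0.60 for *Hspa5* (adjusted permutation p = 0.364 and 0.323). Without the 2 mice farthest from their own median, r with keratinocyte markers was -0.83 for *Hspa5* and -0.69 for *Canx*. On that measure luminal markers had r = -0.61 with *Hspa5*. These relations were computed after the values of the genes had been seen, and the part of macrophage or other cell content in the levels was not tested.

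No other pair had an adjusted Pearson p under 0.05. *Hsp90b1* and *Calr* gave r = 0.62 (permutation p = 0.0106, adjusted 0.0743) and rho = 0.75 (permutation p = 0.00185, adjusted 0.0259), with r = 0.69 without the 2 farthest mice. *Hsp90b1* and *Xbp1* gave r = 0.67 (permutation p = 0.00682, adjusted 0.0743) and rho = 0.55 (permutation p = 0.0379, adjusted 0.177). That relation rested on the extreme mice, since r was 0.29 without the 2 farthest, and it was -0.04 within vehicle and 0.90 within BDE-47 mice, a contrast that was not tested. *Hspa5* and *Xbp1* had r = -0.01 (permutation p = 0.972) and rho = -0.12 (permutation p = 0.678).

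**Figure D3:**
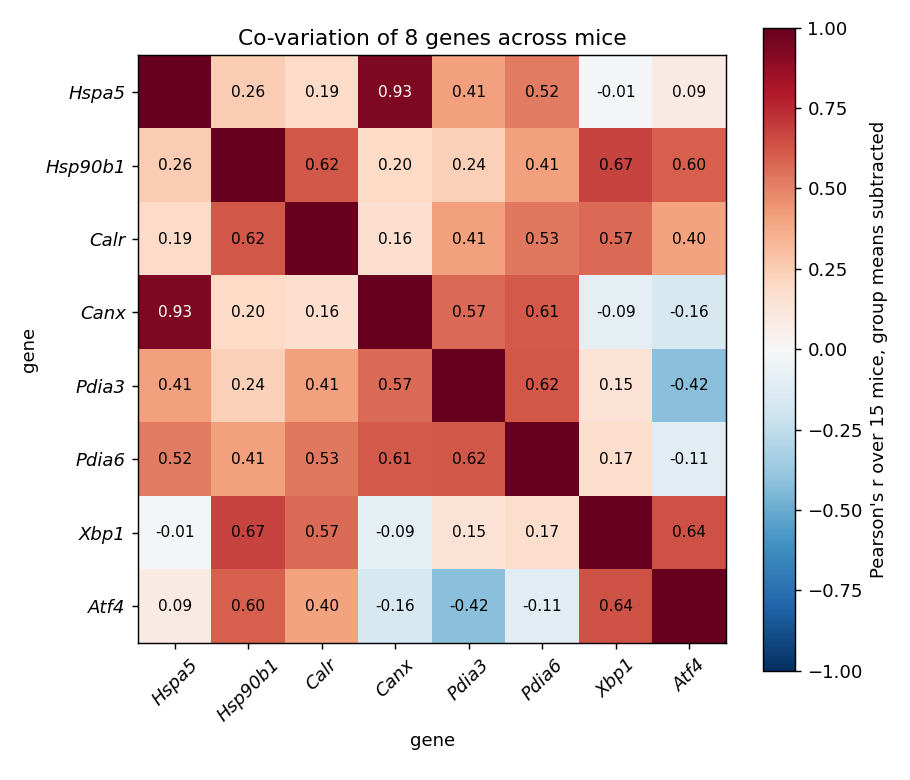
Colours and numbers give Pearson's r between 8 genes over 15 mice after each group's mean was subtracted, from -1 (blue) to 1 (red). *Hspa5* with *Canx* (0.93) is the darkest pair, and *Xbp1* is near 0 with both.

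**Figure D4:**
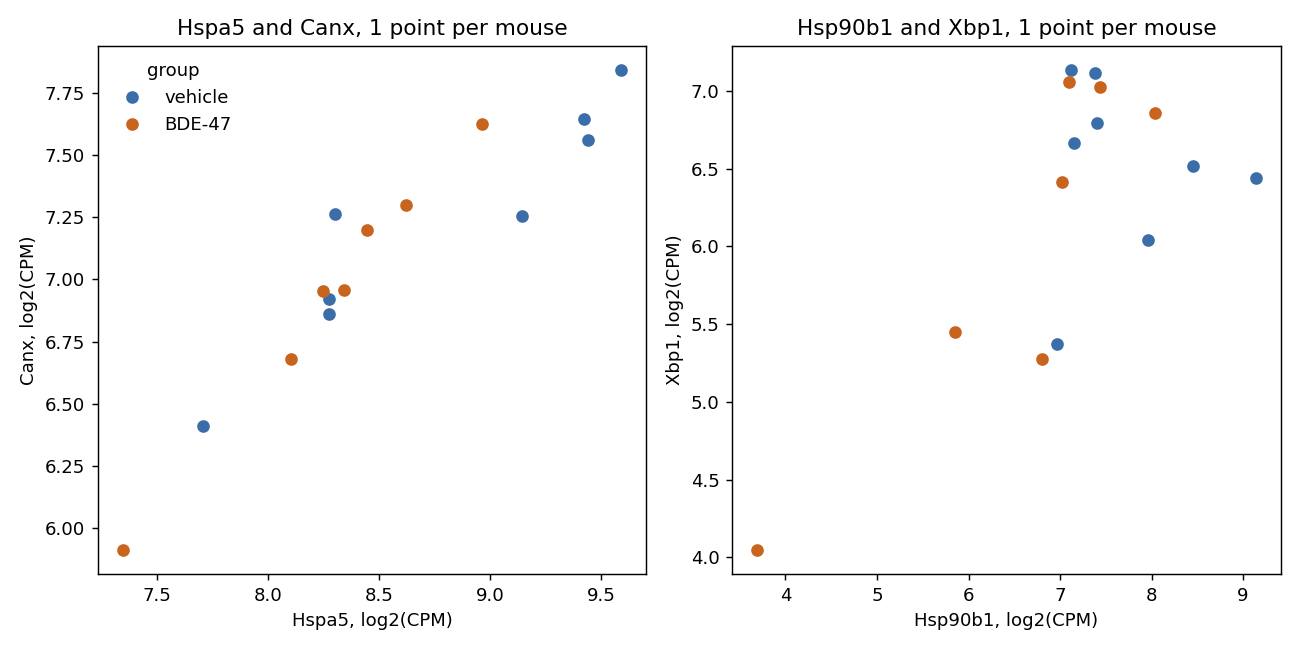
Each point is 1 mouse, vehicle in blue and BDE-47 in orange, with log2(CPM) of *Hspa5* against *Canx* on the left and of *Hsp90b1* against *Xbp1* on the right. The *Hspa5* and *Canx* points lie along a line in both groups, and the right panel has BDE-47 replicate 7 alone at 3.69 and 4.05.

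The ER stress response element was set beside the differences. The 5 genes with the element had a median difference of -0.47 and the 5 without it -0.84, a contrast that was not tested. These medians are the values of *Hspa5* and *Pdia3*, which were -0.31 and -0.21 without BDE-47 replicate 6. *Pdia4* and *Ddit3*, both without the element, had mice listed at 0. Outside the 10 genes, 9 genes with the element were tested, of which 5 were lower and 4 higher, with a median of -0.16 and 0 with an unadjusted limma p under 0.05. Among these 9, *Syvn1*, the ubiquitin ligase of ER-associated degradation, had a difference of -1.15 and *Creld2*, an ER stress-inducible protein, -0.16.

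The wider ER pathway was described with 8 lists, and 0 genes of any list passed the adjusted limma test. Where a mouse was listed at 0, the differences in these lists count it as 0, although its level is not known. The largest share of lower means was in a mixed list of BiP co-chaperones and other ER-lumen folding factors, such as the collagen chaperone *Serpinh1* and FK506-binding prolyl isomerases. Of its 20 genes 18 had a lower mean with BDE-47 (90%, against 50.9% of all genes), with a median difference of -0.88 and 4 unadjusted limma p-values under 0.05, all lower. Without vehicle replicates 6 and 8 the count was 15 of 20 and without BDE-47 replicate 6 it was 17 of 20. *Fkbp2*, an ER prolyl isomerase, was above the floor in all mice, with 5.92, 6.30 and 7.13 log2(CPM) at the lowest, median and highest in vehicle and 3.59, 5.59 and 6.20 in BDE-47 mice. Its ranges overlapped at 5.92 to 6.20, and the difference was -1.17 ± 0.51 (unadjusted limma p = 0.0278, adjusted 0.982, exact permutation p = 0.00311).

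*Hyou1*, the nucleotide exchange factor GRP170 that resets BiP, passed 1 CPM in 7 of 8 vehicle and 3 of 7 BDE-47 mice, a difference of -2.31 with values at 0 included (unadjusted limma p = 0.0414, adjusted 0.982, exact permutation p = 0.046). *Sil1*, the other exchange factor, did so in 8 of 8 and 5 of 7 (-1.79), and the J protein *Dnajc1* in 8 of 8 and 6 of 7 (-1.54). The 2 genes of the list with higher means were *Dnajb9* (0.69) and *Dnajc3* (0.35), both J proteins that respond to ER stress, with exact permutation p of 0.26 and 0.848.

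The other folding lists were closer to the background. Disulfide isomerases and oxidases beyond the 10 genes had 6 of 12 lower with a median of -0.10, which was 0.12 without BDE-47 replicate 6 and 0.0031 with size factors. Within that list *Txndc5*, or ERp46, had the lowest limma p-value named here, with 2.74, 5.28 and 6.37 log2(CPM) at the lowest, median and highest in vehicle mice and 0, 1.95 and 4.09 in BDE-47 mice. It passed 1 CPM in all vehicle mice and in 5 BDE-47 mice, and the groups overlapped in part, with a difference of -2.84 (unadjusted limma p = 0.00331, adjusted 0.982, exact permutation p = 0.00264). *Txndc12* was lower by its mean (-1.50), while *Tmx4* (0.69) and *Tmx2* (0.54) were higher, all with exact permutation p of 0.113 or more.

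The calnexin cycle and N-glycan genes had 11 of 15 lower, with a median of -0.38 that was -0.23 without vehicle replicates 6 and 8. *Rpn1*, a subunit of the oligosaccharyltransferase, had 6.57, 7.30 and 7.84 log2(CPM) at the lowest, median and highest in vehicle and 2.70, 6.71 and 7.27 in BDE-47 mice, a difference of -1.19 ± 0.51 (unadjusted limma p = 0.0249, adjusted 0.982, exact permutation p = 0.0152). *Man1b1*, a mannosidase, had -2.07 and passed 1 CPM in 7 of 8 vehicle and 4 of 7 BDE-47 mice. *Prkcsh*, the beta subunit of glucosidase II, had -1.23 and passed it in 8 of 8 and 6 of 7. *Stt3a*, a catalytic subunit of the oligosaccharyltransferase, had 0.59 and *Mogs*, glucosidase I, 0.51.

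The sensors and their processing genes had 8 of 13 lower, with a median of -0.44 that was -0.22 without BDE-47 replicate 6. *Eif2ak3*, which encodes PERK, passed 1 CPM in 7 of 8 vehicle and 3 of 7 BDE-47 mice (difference -1.90, unadjusted limma p = 0.064, exact permutation p = 0.037). The kinases *Eif2ak4* (GCN2) and *Eif2ak2* (PKR) differed by -1.46 and 0.94, and *Creb3* by 0.21. *Eif2ak4* passed 1 CPM in 6 of 8 vehicle and 2 of 7 BDE-47 mice, and *Eif2ak2* in 6 of 8 and 7 of 7. The targets of ATF4 and CHOP had 6 of 15 lower and 9 higher, with a median of 0.22 that became -0.29 without vehicle replicates 6 and 8 and 0.03 without BDE-47 replicate 6. *Asns*, asparagine synthetase, passed 1 CPM in 4 of 8 vehicle and 7 of 7 BDE-47 mice (1.37, exact permutation p = 0.216), and *Trib3* in 3 of 8 and 5 of 7 (0.90). The serine pathway genes *Shmt2* (-1.55, exact permutation p = 0.0438) and *Psat1* (-1.47) had lower means. *Shmt2* passed 1 CPM in 8 of 8 vehicle and 6 of 7 BDE-47 mice, and *Psat1* in 6 of 8 and 4 of 7.

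ER-associated degradation had 15 of 21 genes lower, with a median of -0.41, and 12 of 21 with size factors or without vehicle replicates 6 and 8. *Edem1*, which delivers misfolded glycoproteins for degradation, had 2.14, 4.08 and 7.49 log2(CPM) at the lowest, median and highest in vehicle and 0, 1.80 and 3.62 in BDE-47 mice (difference -2.47, unadjusted limma p = 0.0207, adjusted 0.982, exact permutation p = 0.0159). It passed 1 CPM in 8 of 8 vehicle and 5 of 7 BDE-47 mice. *Edem3* differed by -1.84 and passed 1 CPM in 6 of 8 vehicle and 3 of 7 BDE-47 mice. *Herpud1* (1.08), of the degradation machinery, passed 1 CPM in 7 of 8 vehicle and 7 of 7 BDE-47 mice. The translocon and signal peptide genes had 10 of 19 lower, with a median of -0.35 that was -0.05 without BDE-47 replicate 6, and ran from *Sec11a* (-1.02) and *Sec11c* (-1.01), of the signal peptidase, to *Sec61g* (0.78) and *Srprb* (1.05).

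Cytosolic heat shock chaperones, the counterpart outside the ER, had 9 of 20 lower and 11 higher, with a median of 0.11 that was 0.02 without vehicle replicates 6 and 8 and 0.20 with size factors. The small heat shock genes *Cryab* (2.39, unadjusted limma p = 0.0421, adjusted 0.982) and *Hspb1* (1.77, unadjusted limma p = 0.0386, adjusted 0.982) had the largest differences upward, with exact permutation p of 0.116 and 0.0979. *Hspb1* passed 1 CPM in 7 of 8 vehicle and 7 of 7 BDE-47 mice, with medians of 4.73 and 5.27 log2(CPM). *Cryab* passed it in 6 of 8 and 6 of 7. *Cryab*, abundant in muscle, was at its highest, 9.98 log2(CPM), in BDE-47 replicate 6, the library with the muscle markers. *Hsph1* (-1.42) and the chaperonin subunit *Cct3* (-1.08) had the largest differences downward.

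**Figure D5:**
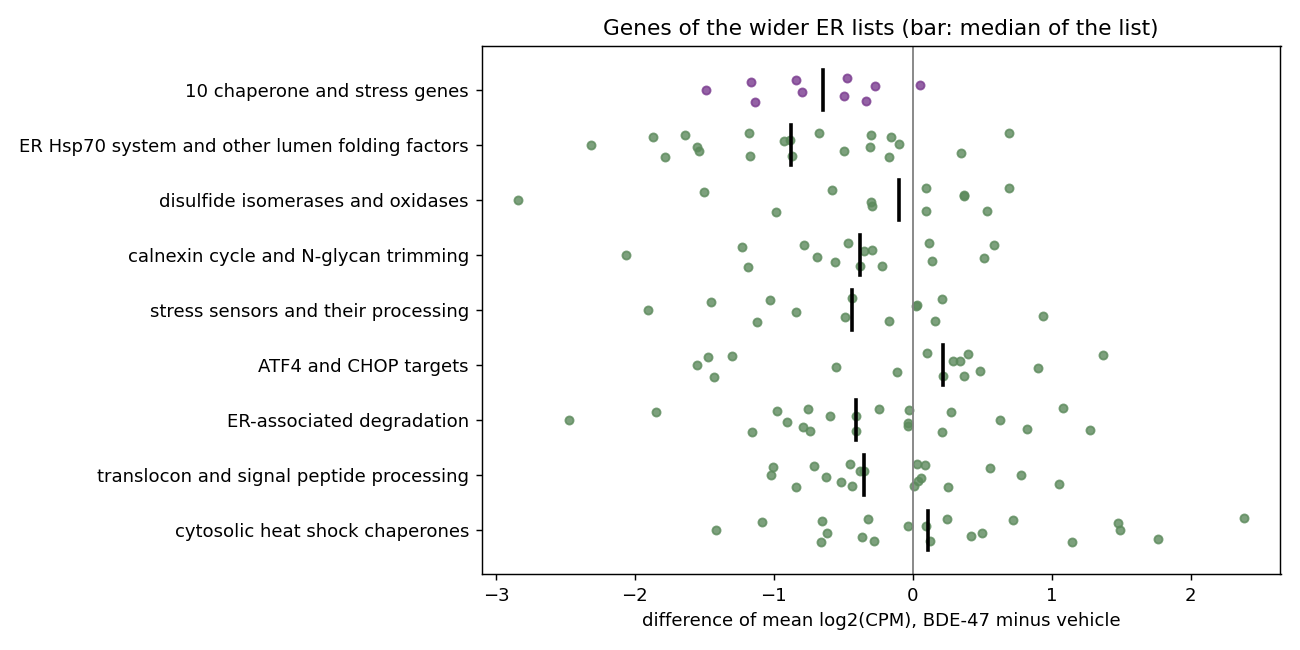
Each point is 1 gene, with its difference in mean log2(CPM), BDE-47 minus vehicle, on the x axis, for the 10 genes (purple) and 8 wider lists (green), and a bar at each list's median. Mice listed at 0 count as 0. The mixed list of the ER Hsp70 system and other lumen folding factors has the lowest median (-0.88), and the ATF4 and CHOP targets (0.22) and cytosolic chaperones (0.11) have medians above 0, the former turning to -0.29 without vehicle replicates 6 and 8.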

How the data were processed

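RNA of 15 mice was made into libraries with Lexogen QuantSeq 3′ FWD. Mapping by the authors used STAR 2.5.3a and GRCm38 (per the submitters' processing notes) with RefSeq as reference, followed by scaling to CPM. The deposited tables hold log2(CPM), and a gene below 1 CPM is entered as 0, but a listed 0 need not be a level under 1 CPM. The values above 0 summed to 51.96% to 66.33% of the CPM total of a mouse. The annotation version is not given in the sources used here. Of 52636 entries, 110 that repeat a gene name were dropped. Depth (10.06 to 19.58 M reads) was recovered from the spacing of low CPM values, 100% of which were whole reads within 0.1. No 2 libraries held identical values.

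Groups came from the treatment label. Genes above 1 CPM in at least 7 mice (9506, with all 10 genes described) were tested with limma 3.58.1 in R 4.3.3 with a trend in the prior variance and Benjamini-Hochberg adjustment. Exact permutation tests over mice (6435 arrangements, smallest p 0.000155), Fisher's exact tests and correlations (100000 permutations) were two-sided. Fisher's exact tests used scipy 1.17.1, and the permutation tests used numpy 2.4.6. The study's xenograft covariate was not used, because the labels do not give it per mouse. The genes and lists were chosen with earlier results of these data known. Named genes were the 10, the 2 largest rises and 2 largest falls of each list among genes tested plus any with an unadjusted limma p under 0.05, and the 5 genes most like *Hspa5*, with *Syvn1* and *Creld2* added after their values were seen. A gene that this rule would name is not reported here. Alternatives were pseudocounts of 1 and 0.1, size factors, other filters, no trend, the replicate block, each mouse left out, and libraries with B cell or muscle genes left out. The replicate block used replicates 1 to 7 of both groups and so left out vehicle replicate 8. The limma step was tested on simulated data. Gene positions and promoters came from RefSeq GRCm38.p6, in which all 10 genes were matched by symbol.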

Additional observations from a re-analysis of the deposited data

Results flagged for a closer look

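In 20 sets of values, each of the 10 genes in each group, 2 held a mouse far from the others by Dixon's criterion at 95%, which chance gives in about 1 set in 20. *Pdia3* in BDE-47 replicate 6 was 0.88 log2(CPM), with a gap to the next mouse of 0.762 of the group's range against a critical value of 0.568. *Ddit3* in vehicle replicate 4 was listed at 0, with a gap of 0.58 of the range against 0.526. That gap takes the listed 0 as a level, although the level in this mouse is not known.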

How the results depend on the processing

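Of 529 values recomputed under alternatives, 478 kept their direction and side of the threshold, or stayed near the reported value. Values over the p threshold as reported could keep their side and still change in size. One of the 478 was r of *Canx* and *Pdia3*, 0.57 as reported and 0.03 without BDE-47 replicate 6. No gene passed the adjusted limma test under any of 23 alternatives (345 to 573 unadjusted p-values under 0.05, lowest adjusted p 0.478). The number of the 10 genes with an unadjusted limma p under 0.05 was 2 as reported, 1 with no filter, and 0 with no trend, with the replicate block or without vehicle replicates 6 and 8. With 1 mouse left out it was 0 to 2 (0 without vehicle replicate 8, 1 without BDE-47 replicate 4 or 7). The number past 2-fold was 3 as reported, 1 without vehicle replicates 6 and 8, 1 by the log2 ratio of mean CPM, and 1 to 4 with 1 mouse left out (1 without vehicle replicate 8 or BDE-47 replicate 7). The exact test's count of 1 was 1 to 3 with 1 mouse left out (2 without vehicle replicate 4 or 5 or BDE-47 replicate 1, 3 without BDE-47 replicate 2). The count of 1 pair of genes with an adjusted correlation p under 0.05 was 2 without subtracting group means, 2 without vehicle replicates 6 and 8, and 1 to 4 with 1 mouse left out. The difference of *Atf4* was -0.13 to 0.36 with 1 mouse left out. Leaving out vehicle replicates 6 and 8 and BDE-47 replicate 6 together, an alternative chosen after seeing the data, turned *Canx* to 0.059 and *Pdia6* to 0.0902. The causes were not tested.

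Whether replicate numbers pair the mice was not tested. The correlation of same-numbered mice was -0.0183 to 0.0531, none over 0.1, and 4 of 7 BDE-47 mice correlated best with the vehicle mouse of their own number. In limma with the replicate block, which also left out vehicle replicate 8, neither *Hsp90b1* (-0.93) nor *Calr* (-0.72) kept an unadjusted p under 0.05. The adjusted limma p of both was 0.993. Leaving out vehicle replicate 8 without the block gave the same differences, with unadjusted limma p of 0.0625 for *Hsp90b1* and 0.0554 for *Calr*. Depending on depth, 1 CPM was 10.06 to 19.58 reads. Because lower values are entered as 0, the levels of *Ddit3* and *Pdia4* in the mice listed at 0 are not known.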
